A study of Mus musculus with 12 samples.

Results

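Hearts of 1-month-old mice without the glucocorticoid receptor in their cardiomyocytes were compared with hearts of littermates that kept it, 3 against 3, across every gene measured. The members are the 6 arrays that the labels give as 1 month old, out of 12 arrays in the series. The knockout mice (cardioGRKO) carried a floxed receptor gene, GRflox, together with Cre recombinase under the αMHC promoter, which is active in heart muscle cells. The controls (GRflox) carried the same floxed gene and no Cre, so an effect of Cre itself and of receptor loss cannot be told apart. All mice were male and of the C57BL/6 background, RNA came from the whole heart, and each heart was hybridised to 1 array. The other 6 arrays, from the same genotypes at 2 months, enter the estimate of the spread and are set beside the 1-month values. The hearts are called control 1 to 3 and knockout 1 to 3 after the replicate numbers in the labels.

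The glucocorticoid receptor, encoded by Nr3c1, is a hormone-activated transcription factor that binds cortisol or corticosterone and then raises or lowers the transcription of target genes. Chaperones such as the Hsp90 proteins and the immunophilins hold the unbound receptor in the cytoplasm, and Fkbp5, Per1 and Tsc22d3 are among its widely used target genes. In the rodent heart, the slow (beta) myosin heavy chain Myh7 is the fetal form, the fast (alpha) chain Myh6 replaces it after birth, and renewed expression of Myh7 is a classical marker of cardiac stress and hypertrophy.

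Of 21909 genes tested, 6 (0.0274%) differed between knockout and control hearts at 1 month (limma, Benjamini-Hochberg adjusted p under 0.05). Transcripts of Myh7, of the mTOR inhibitor Ddit4l and of the unnamed probe A_52_P764117 rose (3 genes, 0.0137%). Those of Phyhd1, an oxygenase of the phytanoyl-CoA hydroxylase family, of the RNA-binding protein gene Csdc2 and of the Z-disc protein gene Myot fell (3 genes, 0.0137%). The changes spanned 1.58-fold for Ddit4l to 7.05-fold for Myh7. Nr3c1 itself lay at 50.02% of the control signal on its main probe with groups that did not overlap, and was the gene next to the threshold.

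Promoter sequence is shown for the genes that passed and have an entry in the RefSeq promoter table of GRCm38.p6. These are the transcripts on which the comparison turns, and an exact match to a receptor motif near the start site would be visible there. The entries cover 3 of the 6 (Myh7, Phyhd1 and Ddit4l), and Csdc2 is named only. Each run holds the 250 bases upstream of the most upstream start listed, 5′ to 3′ on the strand of the gene, with capitals for a match to GGAATG, the core of the MCAT element of muscle promoters, or to AGAACA, the receptor half-site. The windows are chr14:54994627-54994876 (minus strand) for Myh7, chr2:30265953-30266202 (plus strand) for Phyhd1 and chr3:137623422-137623671 (plus strand) for Ddit4l.
Myh7: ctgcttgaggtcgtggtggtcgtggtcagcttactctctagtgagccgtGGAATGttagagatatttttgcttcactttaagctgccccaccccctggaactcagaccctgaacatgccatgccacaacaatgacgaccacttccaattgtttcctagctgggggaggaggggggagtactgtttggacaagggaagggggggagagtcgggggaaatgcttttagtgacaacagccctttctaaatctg
Phyhd1: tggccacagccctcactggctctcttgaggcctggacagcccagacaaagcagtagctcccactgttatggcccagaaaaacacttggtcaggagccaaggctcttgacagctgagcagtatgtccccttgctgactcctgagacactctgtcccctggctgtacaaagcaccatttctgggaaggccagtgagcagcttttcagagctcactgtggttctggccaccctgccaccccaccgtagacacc
Ddit4l: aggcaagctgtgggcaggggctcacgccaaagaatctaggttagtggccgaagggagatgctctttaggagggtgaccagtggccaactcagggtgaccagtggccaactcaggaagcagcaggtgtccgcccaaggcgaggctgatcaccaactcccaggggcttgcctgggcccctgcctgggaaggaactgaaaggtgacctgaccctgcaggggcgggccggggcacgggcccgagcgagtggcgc
Myh7 held 1 match to GGAATG and 0 to the other motifs, while the Phyhd1 and Ddit4l windows held 0 matches to any. The window of the other Myh7 start listed (chr14:54994550-54994799) held 0 matches to any, so the match depends on the start taken. The motifs searched on both strands were the palindromic receptor element (AGAACA, any 3 bases, then its reverse complement), the half-site alone, the MCAT core and the TATA box TATAAA, and the half-site is contained in the palindrome. Over all 32851 promoter windows of the same length, 0.00913% held the palindrome, 16.1% the half-site, 12.6% the MCAT core and 12.4% the TATA box. A match describes letters only, and the absence of one covers only these windows and exact matches, so a receptor-binding sequence with other letters would be missed.

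Levels are log2 processed signals from which the 75th percentile of their array was subtracted, so that 0 is the 75th percentile and 1 unit is a doubling. The 75th percentile lay between 963 and 1549 intensity units on the 6 arrays, and 67.0% to 78.9% of probes were well above background, with knockout 1 at the top of both ranges. Correlations over probes were 0.975 to 0.986 within the controls, 0.963 to 0.979 within the knockouts and 0.958 to 0.985 between the groups. The 3 controls shared slide 1 and no knockout was on it, so among 1-month hearts the slide and the genotype cannot be told apart. Knockouts 2 and 3 were on slide 2 beside a pair of 2-month controls, and knockout 1 was on slide 4, scanned on a second day. The labelled tissue was checked against its markers: all 13 ventricular cardiomyocyte markers were well above background on each of the 6 arrays. Fat differed between hearts of 1 group: the brown fat gene Ucp1 was at -1.94 in control 3 against 5.42 and 4.78 in controls 1 and 2 and 3.85 to 5.36 in the knockouts. Values without this heart are given below for some of the lists and genes that it moved, and other named genes moved as well.

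The targeted gene checks the labels. On the Nr3c1 probe with the highest mean (chromosome 18, mm7, 39787242 to 39787301), the controls were at 2.66, 2.20 and 2.19 and the knockouts at 1.30, 1.35 and 1.39. Every knockout lay below every control, and control 1 stood above the other controls. The log2 fold change was -0.999 (SE 0.13, n = 3 hearts per group), with a limma adjusted p of 0.0684 over all genes, which misses the threshold. The other 3 probes of the gene, all on chromosome 18, were at 57.6%, 65.6% and 56.6% of the control signal, and on each the groups did not overlap. The labels do not say which exons are floxed, so whether a probe lies in the deleted part is unknown. Other cells of the heart keep an intact gene, and in whole-heart RNA fewer cells of a type and less RNA per cell cannot be told apart. At 2 months the main probe was lower by the same test (log2 fold change -1.15, adjusted p = 0.0117, 45.1% of control).

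**Figure D1:**
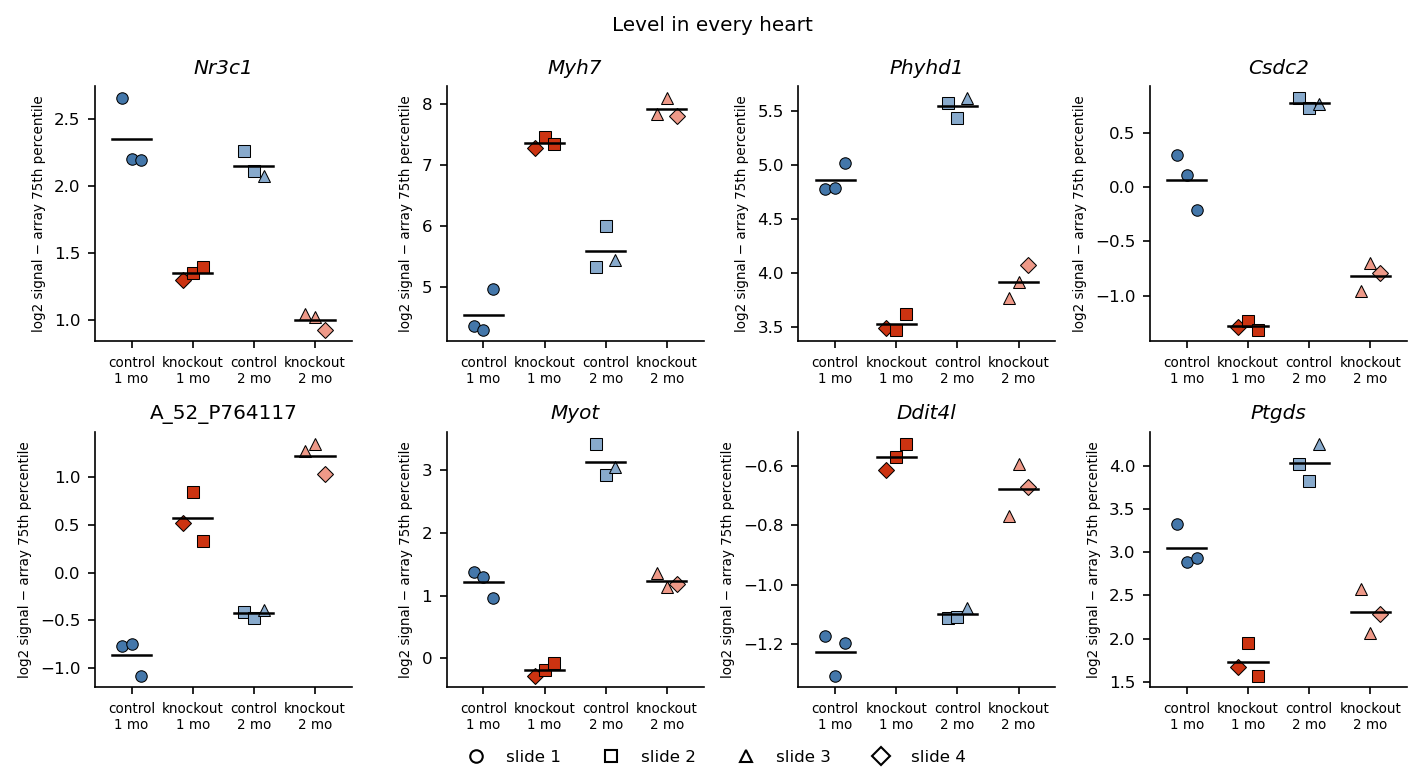
Level of each gene in each of the 12 hearts (y axis, log2 signal relative to the array's 75th percentile; each panel has its own scale). Blue points are controls and red points knockouts, paler at 2 months, marker shapes give the slide, and the horizontal line is the mean of the 3 hearts. In all 8 panels the 1-month knockouts sit apart from the 1-month controls, for example Myh7 at 7.27 to 7.45 against 4.29 to 4.97. The genes that passed were picked by this difference, and Ptgds was named among genes without overlap. Their separation is therefore no result of its own. Over all genes, 17.5% had 1-month groups that do not overlap.

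Myh7 was the largest of the changes. Controls were at 4.35, 4.29 and 4.97 and knockouts at 7.27, 7.45 and 7.34. The knockouts lay within a narrow band, control 3 was the highest control, and the gap between the groups was far wider than either spread. The fit gave a log2 fold change of 2.82 (SE 0.22, 7.05-fold, limma adjusted p = 0.00586, n = 3). Both probes of the gene gave 2.82, but they lie at 49837275 to 49837334 and 49837280 to 49837339 on chromosome 14 (mm7), overlap over most of their length and are not independent. Myh6, its neighbour on that chromosome and a close relative in sequence, was at 9.08, 8.85 and 9.11 in controls and 8.72, 8.89 and 8.66 in knockouts, with overlapping groups and a log2 fold change of -0.26 (SE 0.14). The other Myh6 probe gave -0.42 with groups that did not overlap. Quantile scaling with normexp background gave Myh6 the opposite sign, 0.17, while Myh7 ran from 2.59 to 3.03 over 27 alternative settings.

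Myot, which encodes the actin-crosslinking Z-disc protein myotilin, fell. On its probe (chromosome 18, mm7, 44733035 to 44733094) controls were at 1.38, 1.29 and 0.97 and knockouts at -0.27, -0.19 and -0.07. Control 3 was nearest to the knockouts and still well above the highest of them. The log2 fold change was -1.39 (SE 0.15, 2.62-fold lower, limma adjusted p = 0.0298, n = 3), and 10 of 27 alternative settings kept it past the threshold.

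Phyhd1 belongs to the family of 2-oxoglutarate-dependent oxygenases that includes phytanoyl-CoA hydroxylase, the peroxisomal enzyme that starts the breakdown of phytanic acid. Its signal (chromosome 2, mm7, 30289346 to 30289405) was 4.78, 4.78 and 5.01 in controls and 3.48, 3.47 and 3.61 in knockouts. Hearts within each group were close together, and the groups lay well apart. The log2 fold change was -1.34 (SE 0.11, 2.52-fold lower, limma adjusted p = 0.00586, n = 3). Phyh, which encodes the phytanoyl-CoA hydroxylase itself, was at -0.02 (SE 0.12) as a log2 fold change.

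Csdc2 encodes a cold shock domain protein that binds the ends of some messenger RNAs. On its probe (chromosome 15, mm7, 82035061 to 82035120) controls were at 0.30, 0.11 and -0.21 and knockouts at -1.29, -1.24 and -1.32. The knockouts were nearly alike, the controls spread more widely, and the groups did not overlap. The log2 fold change was -1.35 (SE 0.13, 2.55-fold lower, limma adjusted p = 0.0123, n = 3). The related calcium-regulated protein gene Carhsp1 had a log2 fold change of 0.04 (SE 0.12).

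Ddit4l encodes REDD2, a stress-induced inhibitor of the mTOR kinase complex that drives protein synthesis and growth. Controls were at -1.17, -1.31 and -1.20 and knockouts at -0.61, -0.57 and -0.52 (chromosome 3, mm7, 137434651 to 137434710). This was the smallest of the changes that passed, and the hearts of each group were close together. The log2 fold change was 0.66 (SE 0.08, 1.58-fold, limma adjusted p = 0.0405, n = 3), and it was the member nearest to the threshold from the inside. Its other probes gave 0.79 and 0.70, each with groups that did not overlap. Ddit4, the paralog REDD1 and a known glucocorticoid target, was at -0.29 (SE 0.47), and control 3, at 3.27, lay well below controls 1 and 2 at 4.92 and 4.77. Without control 3 the log2 fold change of Ddit4 was -0.82 (SE 0.38).

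Probe A_52_P764117, on chromosome 16 (mm7, 4860399 to 4860458), is listed without a gene. Controls were at -0.77, -0.74 and -1.08 and knockouts at 0.53, 0.85 and 0.34, with no overlap. Its log2 fold change was 1.43 (SE 0.15, 2.70-fold, limma adjusted p = 0.0243, n = 3).

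**Figure D2:**
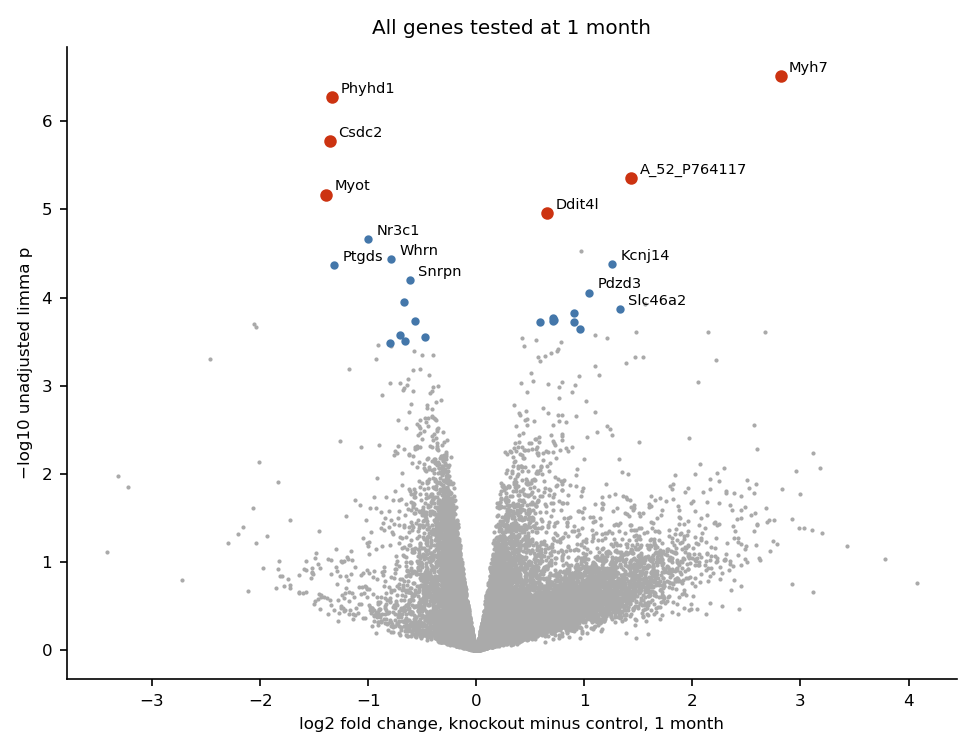
Log2 fold change, knockout minus control at 1 month (x axis), against minus log10 of the unadjusted limma p (y axis) for 21909 genes. Red points are the 6 genes that passed, blue points the next 10 on each side under the naming rule, and gray points all others. The named genes leave the cloud by a small p, while many gray points have a larger fold change and a larger p.

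The calls rested on few arrays. Without knockout 1 or without knockout 2 no gene passed, with 932 and 1040 genes at an unadjusted p under 0.05, against 1338 (6.11%) with all arrays. Without control 1, 2 or 3 the count was 5, 2 or 4, and without knockout 3 it was 3. Without knockout 1 the limma adjusted p was 0.0585 for Myh7, 0.0651 for Phyhd1, 0.113 for Csdc2, 0.163 for A_52_P764117, 0.191 for Myot and 0.192 for Ddit4l. Without knockout 2 these were 0.0669, 0.0669, 0.0774, 0.0774, 0.236 and 0.240. Over all 27 alternatives, which include leaving out any 1 of the 12 arrays, Myh7 and Phyhd1 passed in 22, Csdc2 in 19, A_52_P764117 in 13, Myot in 10 and Ddit4l in 4. All 6 kept their direction in each. Leaving out a 2-month array, using the 1-month arrays alone or the deposited table, or changing the moderation leaves a 1-month log2 fold change as it was. Direction could not turn under those settings. Nr3c1 passed in 6 of the 27 alternatives, with log2 fold changes of -1.22 to -0.74.

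Within slides, where knockout and control arrays lay side by side, the 6 genes had the same direction. Knockouts 2 and 3 were among the arrays by which these genes were picked, so on slide 2 the direction was largely set by that choice. The share of all genes that kept their direction within slides was not taken. On slide 2, knockouts 2 and 3 could be set only against 2-month controls, so age differs too. There Myh7 was higher by 1.74, A_52_P764117 by 1.04 and Ddit4l by 0.57. Phyhd1 differed by -1.96, Csdc2 by -2.06, Myot by -3.31 and Nr3c1 by -0.81 in the same pairing. On slide 3, which held a pair of 2-month knockouts and a 2-month control, the differences were 2.54, 1.70 and 0.40 for the first group of genes. They were -1.78, -1.61, -1.79 and -1.04 for Phyhd1, Csdc2, Myot and Nr3c1. Neither slide gives a comparison of 1-month hearts alone.

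At 2 months, in other animals, 29 genes passed (0.132%), and 5 of the 6 early genes were among them. Myh7 had a log2 fold change of 2.33 (limma adjusted p = 0.00587), from controls at 5.32, 5.99 and 5.43 to knockouts at 7.84, 8.10 and 7.79. The younger knockouts were therefore below the older ones and above all older controls. Phyhd1 was at -1.63 (adjusted p = 0.00205), Csdc2 at -1.60 (0.00339), A_52_P764117 at 1.64 (0.00587) and Myot at -1.90 (0.00339). Ddit4l was at 0.42 (adjusted p = 0.100) and did not pass, although the 2-month groups of all 6 genes did not overlap, as for 12.4% of all genes. Myot controls were at 3.43, 2.93 and 3.04 at 2 months against 0.97 to 1.38 at 1 month, so the older knockouts, at 1.36, 1.14 and 1.19, lay in the range of the younger controls. The difference between the effects at the 2 ages was tested for all genes, and 0 passed (limma; 292 genes, 1.33%, had an unadjusted p under 0.05). For Myot it was -0.51 (SE 0.22, unadjusted p = 0.0439), for Myh7 -0.49 (SE 0.31) and for Ddit4l -0.24 (SE 0.11). Both ages share 1 estimate of the spread, and no heart is common to them.

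**Figure D3:**
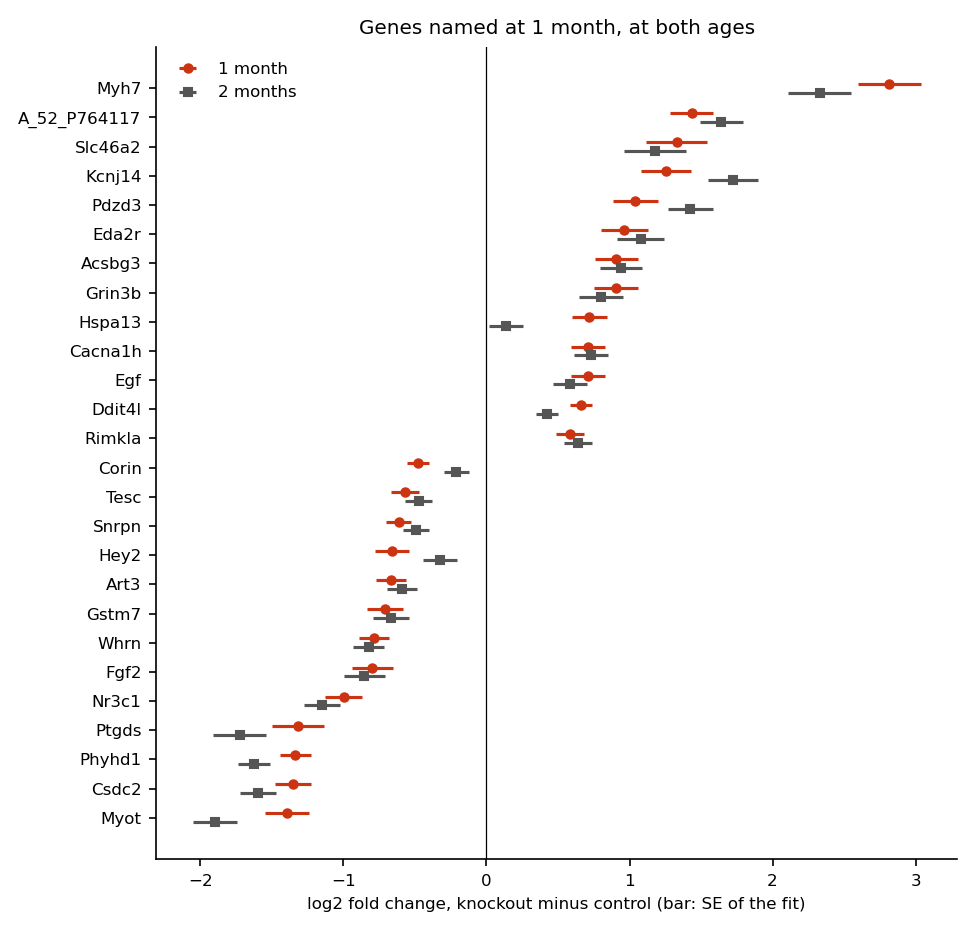
Log2 fold change, knockout minus control, at 1 month (red circles) and 2 months (gray squares) for the genes named by rank, with bars of 1 SE of the fit. Every gene has the same sign at both ages; Hspa13 shows the widest gap relative to its bars, 0.72 against 0.14.

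The next 10 higher and 10 lower genes by unadjusted p are given as values because none passed. They were drawn only from genes whose 1-month groups do not overlap, as for 17.5% of all genes, so lack of overlap is no result here. Kcnj14, an inward rectifier potassium channel, was at -4.22, -4.50 and -3.98 in controls and -2.95, -2.77 and -3.21 in knockouts. Its log2 fold change was 1.26 (SE 0.17, limma adjusted p = 0.0848, n = 3). Cacna1h, a T-type calcium channel, was at -0.99, -0.81 and -0.83 against -0.12, -0.17 and -0.20, which gave 0.71 (SE 0.12, limma adjusted p = 0.180). Pdzd3, a PDZ scaffold protein, was at 1.04 (adjusted p = 0.148), the solute carrier Slc46a2 at 1.33 and the glutamate receptor subunit Grin3b at 0.91. Eda2r, a receptor of the tumour necrosis factor family, was at 0.96, the acyl-CoA synthetase Acsbg3 at 0.91, the growth factor gene Egf at 0.71 and the peptide-forming enzyme Rimkla at 0.59. Kcnj14, Grin3b, Acsbg3 and Eda2r were dim, and the size of their changes depended on the processing. Over 27 alternative settings their lowest log2 fold changes were 0.48, 0.26, 0.30 and 0.42. Hspa13, an Hsp70 relative of the endoplasmic reticulum, had controls at 1.38, 1.02 and 1.50 and knockouts at 1.94, 2.13 and 1.99. It was at 0.72 at 1 month and 0.14 at 2 months, a difference of -0.58 (SE 0.17, unadjusted p = 0.00699, limma adjusted p = 1.00).

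On the lower side, Ptgds encodes lipocalin-type prostaglandin D synthase and is a glucocorticoid-responsive gene in heart muscle cells. Controls were at 3.32, 2.89 and 2.93 and knockouts at 1.67, 1.95 and 1.57, with a clear gap between the groups. The fit gave -1.32 (SE 0.18, limma adjusted p = 0.0848, n = 3) at 1 month and -1.73 (adjusted p = 0.0111) at 2 months. Whrn, a PDZ scaffold protein of sensory hair cells, was at 3.18, 3.32 and 3.22 in controls and 2.49, 2.41 and 2.46 in knockouts (log2 fold change -0.79, adjusted p = 0.0848). Its second probe gave 0.03, so the probes disagree. The imprinted splicing factor gene Snrpn was at -0.61, the ADP-ribosyltransferase family gene Art3 at -0.67, the calcium-binding protein gene Tesc at -0.57 and the glutathione transferase gene Gstm7 at -0.71. Corin, the protease that activates the atrial natriuretic peptide precursor, was at -0.48, and the ventricular transcription factor Hey2 at -0.66. Fgf2, a growth factor, was at -0.80 and was well above background in 1 of the 3 knockouts. The 10 lower genes also hold Nr3c1, the targeted gene described above. At 2 months 10 of the 10 higher and 10 of the 10 lower genes kept their sign, and 2 and 3 of them passed there. The 3 lower ones were Nr3c1 (limma adjusted p = 0.0117), Ptgds and Whrn (0.0305). The share of all genes that kept their sign was not taken.

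Gene lists covered receptor partners and targets, muscle structure, metabolism and markers of other cells. They held 536 tested genes, of which 5 passed, all described above. The lists were chosen with earlier results of these data known and include families of genes that passed. These 5 are therefore no result about the lists. Over all genes the median log2 fold change was 0.04, 43.3% of genes lay below 0, 8.7% had knockouts all above the controls and 8.8% all below. List counts are to be read against these shares. Leaving out 1 of the 6 arrays moved the median of 24 of the 29 lists by over 1.5 times or turned its sign, and in 12 of them the sign turned. The Z-disc, cold shock domain, fatty acid oxidation, ventricular and endothelial medians were the 5 that did neither.

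The receptor and its partners showed no member that passed besides the values given for Nr3c1. Of 16 corticosteroid receptor, chaperone and steroid enzyme genes, 10 lay below 0 (median -0.10), with 4 members lower and 1 higher without overlap. The co-chaperone Stip1 was at -0.23 (SE 0.12) and the corepressor Ncor1 at -0.19 (SE 0.11). Nr3c2, the mineralocorticoid receptor that binds the same hormones, was at -3.77, -3.83 and -3.87 in controls and -1.93, -3.19 and -3.40 in knockouts. The groups did not overlap, but knockout 1 carried most of the log2 fold change of 0.98 (SE 0.64).

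Among 32 measured glucocorticoid-induced genes, 0 rose and 0 fell, 21 lay below 0 (median -0.09), and 8 were lower and 0 higher without overlap. The median was -0.03 without knockout 3 and -0.19 without control 3 or without knockout 2. Besides Ptgds these included the AMP deaminase Ampd3, with controls at -0.75, -0.79 and -0.82 and knockouts at -1.20, -1.16 and -1.22 (log2 fold change -0.41, SE 0.10). The metallothionein Mt2 was at -0.65 (SE 0.23) and the transcription factor Klf9 at -0.38 (SE 0.15), both without overlap. Fkbp5, a receptor immunophilin, was at -1.91, -2.08 and -2.55 in controls and -2.35, -2.65 and -3.19 in knockouts. Its groups overlapped (log2 fold change -0.55, SE 0.34). The leucine zipper protein Tsc22d3 (-0.19, SE 0.16), the clock gene Per1 (-0.40, SE 0.37) and Klf15 (0.08, SE 0.15) also overlapped. Without control 3 Per1 was at -0.08 and Klf9 at -0.24. Lcn2 (-0.70, SE 0.68) was well above background in 2 controls and 1 knockout.

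No contractile gene other than Myh7 and Myot passed. Of 19 myosin genes 1 rose, 0 fell and 11 lay below 0 (median -0.08). The fast skeletal light chain Mylpf was at 0.72 (SE 0.19), the non-muscle chain Myh9 at -0.34 (SE 0.10) and Myh2 at 1.08 (SE 0.44); heavy chain genes are close in sequence, and signal on probes of the skeletal chains may be shared. Of 23 thin filament and titin genes 0 passed and 15 lay below 0 (median -0.05), with the slow troponin Tnnt1 at -0.60 (SE 0.18), the tropomyosins Tpm3 and Tpm4 at -0.19 each and skeletal actin Acta1 at 0.84 (SE 0.34). Acta1 controls were at 4.46, 4.39 and 3.41 and knockouts at 4.90, 5.03 and 4.85, so the low control 3 adds to the difference, which was 0.50 (SE 0.31) without it. Of 29 Z-disc genes 1 fell, 0 rose and 21 lay below 0 (median -0.14), with 7 lower and 5 higher without overlap. The muscle LIM protein Csrp3 was at -0.29, Pdlim5 at -0.34 and desmin (Des) at -0.27. Under quantile scaling the medians of the myosin and thin filament lists were 0.03 and 0.01, and that of the Z-disc list -0.06.

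Among fetal and hypertrophy genes Myh7 alone passed. Of 29 measured, 1 rose, 0 fell and 18 lay below 0 (median -0.06), with 4 higher and 3 lower without overlap. The natriuretic peptide gene Nppa was at 8.94, 8.84 and 8.36 in controls and 8.51, 8.73 and 8.57 in knockouts, a log2 fold change of -0.11 (SE 0.18). Nppb was at 5.16, 5.12 and 4.58 against 5.15, 5.08 and 4.42 (-0.07, SE 0.34). The Nppa knockouts lay inside the range of the controls, and the Nppb groups overlapped, with knockout 3 below every control. Without control 3 these differences were -0.29 and -0.26, and at 2 months Nppb was at 1.10 (limma adjusted p = 0.382). The stress cytokine gene Gdf15 was at -1.72, -1.66 and -2.30 in controls and -0.37, -0.17 and -0.99 in knockouts, without overlap (log2 fold change 1.38, SE 0.27, adjusted p = 0.215). The stretch-responsive Ankrd1 was at 0.41 (SE 0.20) and the small heat shock protein gene Hspb7 at -0.43 (SE 0.12).

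Calcium handling genes, which release, take up and sense calcium at each beat, lay on both sides of 0. Of 30, 0 passed, 17 lay below 0 (median -0.02), and 5 were higher and 4 lower without overlap. Casq1, the calsequestrin of fast skeletal fibres, was at 0.22, 0.09 and 0.07 in controls and 1.29, 1.49 and 1.22 in knockouts. The hearts of each group were close together, and the log2 fold change was 1.21 (SE 0.20, limma adjusted p = 0.187, n = 3; 2.15 at 2 months, where 2 of 3 controls were measured). The T-type channel Cacna1g was at 0.59 (SE 0.11) and the IP3 receptor Itpr1 at 0.41 (SE 0.09), beside Cacna1h above. The cardiac ryanodine receptor Ryr2 was at -0.60, -0.60 and -0.46 in controls and -1.03, -0.86 and -0.84 in knockouts (log2 fold change -0.36, SE 0.10). Its other probes gave -0.20 and -0.67, the last mostly below background. In the dystrophin complex, 0 of 17 genes passed (median -0.08). Dmd was at -0.25 (SE 0.13), utrophin (Utrn) at 0.29 (SE 0.11) and the nitric oxide synthase Nos1 at 1.24 (SE 0.31), and Nos1 was lowest in control 3 at -4.32. Without that heart Nos1 was at 0.88 and Dmd at -0.16.

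In the families of the other genes that passed, no further member passed. Of 27 mTOR pathway regulators, 1 (Ddit4l) rose and 0 fell (median -0.01); the sestrin genes Sesn2 and Sesn3, also stress-induced inhibitors, were at 0.26 each. Of 6 cold shock domain genes, 1 (Csdc2) fell and 0 rose (median -0.18), with Ybx1 at -0.17 and Ybx2 at -0.47. Ybx1 had a value in 2 of the 3 controls. Of 27 phytanic acid and peroxisomal oxidation genes, 1 (Phyhd1) fell and 0 rose (median -0.02), with Acox2 at 0.93 (SE 0.31) and Pex14 at 0.52 (SE 0.26). Of 20 prostaglandin synthesis and receptor genes 0 passed (median 0.04, or -0.13 without control 3). Next to Ptgds, the synthase Ptges2 was at -0.33 (SE 0.10), Ptges3 at -0.22 and the receptor Ptgfr at -0.43 (SE 0.31), or -0.85 without control 3.

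Genes of mitochondrial fatty acid oxidation, the main fuel pathway of the adult heart, were the list with the highest share below 0 after the cell cycle genes among the 18 lists that are not cell markers. Of 30, 27 lay below 0 (median -0.17), 10 were lower and 0 higher without overlap, and 0 passed. The thioesterase Acot1 was at 3.61, 3.50 and 2.96 in controls and 2.50, 2.73 and 1.63 in knockouts (log2 fold change -1.07, SE 0.29). The groups did not overlap, and the lowest heart of each group was replicate 3. Acot2 was at -0.58 (SE 0.21), the very long chain dehydrogenase Acadvl at -0.41 (SE 0.16) and Hadh at -0.20 (SE 0.10; -0.12 without control 3). The median was -0.09 under quantile scaling and -0.41 under median centring, which lowered the median of all genes to -0.18. Ventricular cardiomyocyte markers also had 11 of 13 below 0 (median -0.24, -0.03 under quantile scaling), with summed levels of 2577 to 3129 in controls and 1998 to 2698 in knockouts, and their part in this pattern was not tested.

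Cell cycle genes had the lowest list median, -0.36, with 40 of 42 below 0, 12 lower and 1 higher without overlap, and 0 past the test. The replication helicase gene Mcm6 was at 3.57, 3.35 and 3.15 in controls and 2.90, 2.96 and 2.86 in knockouts (log2 fold change -0.45, SE 0.11). Mcm5 was at -0.44 (SE 0.14), the mitotic activator Cdc20 at -0.62 (SE 0.21) and the kinetochore gene Cenpf at 0.53 (SE 0.18). The list score of an array is the median over members of their level minus its mean over the 12 arrays. It was 0.51, 0.91 and 0.41 in controls and 0.44, 0.20 and 0.20 in knockouts, so knockout 1 lay within the range of the controls. Without control 2 the median was -0.22. At 2 months it had the other sign, 0.22.

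Fast skeletal muscle genes had a median of 0.24 over 21 tested, with 6 higher and 2 lower without overlap and 0 past the test. Beside Casq1 and Mylpf, the fast myosin-binding protein gene Mybpc2 was at 2.75, 2.97 and 2.88 in controls and 3.20, 3.35 and 3.33 in knockouts (log2 fold change 0.43, SE 0.14). The muscle creatine kinase Ckm was at -0.31 (SE 0.12). Without knockout 1 the list median was 0.10, and under median centring it was 0.02.

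**Figure D4:**
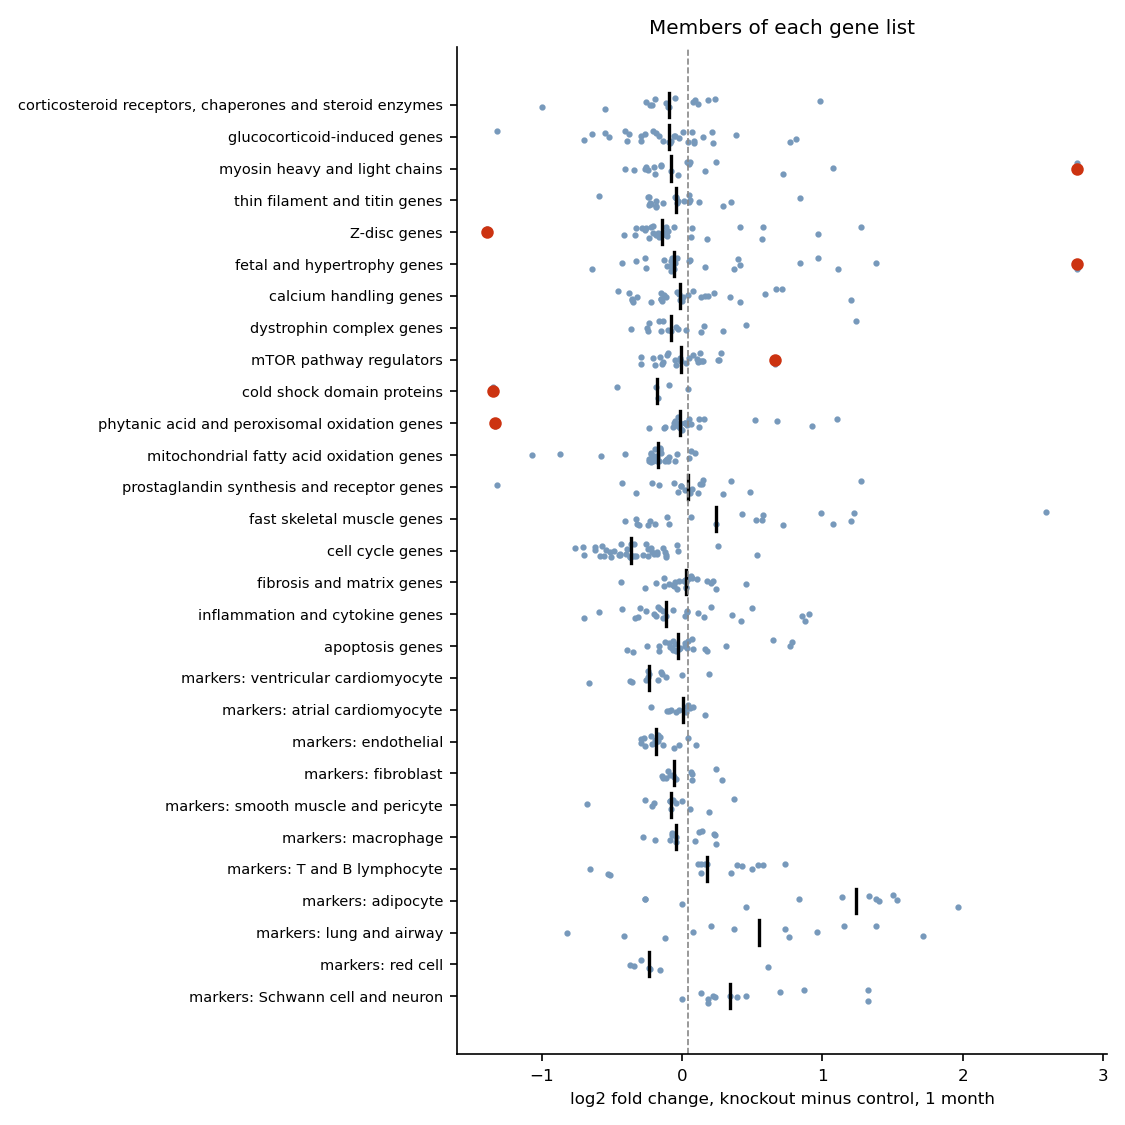
Log2 fold change at 1 month, knockout minus control (x axis), of each tested member of the 29 gene lists (rows). Black bars are list medians, red points the genes that passed and the dashed line the median of all genes, 0.04. Most points of the cell cycle list lie left of the line, with a median of -0.36, and those of the adipocyte list spread far to the right.

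Markers of other cells and neighbouring tissues varied between hearts of 1 group, and none of their members passed. Of 12 adipocyte markers 9 lay above 0 (median 1.24). Control 3 was far below all other hearts: Adipoq was at 3.80, 3.89 and -1.13 in controls and 4.02, 3.37 and 3.39 in knockouts. The summed linear level of the list, in multiples of the 75th percentile, ran from 453 to 893 in controls and from 574 to 731 in knockouts. Without control 3 the median was -0.27, so the sign turned. Without control 3 Myh7, Phyhd1, Csdc2 and Myot passed, while the limma adjusted p was 0.0918 for A_52_P764117 and 0.101 for Ddit4l. Of 12 lung and airway markers 9 lay above 0 (median 0.55). The sign of this median rested on single arrays: it was -0.42 without control 3 and -0.22 without knockout 3, against 1.40 without control 1 and 1.46 without knockout 2. The club cell gene Scgb1a1 was at 4.24, -1.05 and -4.95 in controls and 2.14, -3.80 and 4.04 in knockouts, high in control 1, knockout 1 and knockout 3. The summed level ran from 2.00 to 87.1 and from 3.32 to 83.4, and Cldn18 was not well above background in any of the 6 hearts. Schwann cell and neuron markers lay above 0 in 13 of 13 (median 0.34), with Uchl1 at 2.49, 2.42 and 2.29 in controls and 2.77, 2.88 and 2.92 in knockouts. Their summed level was 22.1 to 30.4 and 27.3 to 30.5, lowest in control 3, and without it the median was 0.07. T and B lymphocyte markers had a median of 0.18 over 15, with summed levels of 6.75 to 12.7 and 6.40 to 14.9, and knockout 1 had the highest score, 0.78. Their median was -0.03 without knockout 1, 0.00 without control 3 and 0.64 without knockout 3. Red cell markers had 6 of 7 below 0 (median -0.23), with summed levels of 1012 to 1098 and 801 to 986. Without knockout 3 their median was -0.02 and without knockout 1 -0.44.

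Of the cell types of the heart wall, endothelial markers had 14 of 16 below 0 (median -0.18), 4 lower and 0 higher without overlap, with Robo4 at 4.71, 4.61 and 4.71 in controls and 4.34, 4.30 and 4.51 in knockouts and Pecam1 at -0.27 (SE 0.10). Their summed levels were 436 to 657 in controls and 423 to 466 in knockouts, so the sums overlapped. Their list scores did not overlap, at 0.16 to 0.22 in controls and -0.04 to 0.06 in knockouts. This was not particular to endothelial markers. Scores of the corticosteroid receptor, Z-disc and cold shock domain lists were also lower in knockouts without overlap. Those of the fast skeletal muscle list were higher without overlap. Fibroblast markers had a median of -0.05 over 13 (690 to 738 and 694 to 744), with Pdgfra at 0.29 (SE 0.11). Smooth muscle and pericyte markers were at -0.08 over 13 (192 to 296 and 235 to 270), atrial markers at 0.00 over 12 (680 to 1138 and 835 to 961; median -0.25 without control 3) and macrophage markers at -0.04 over 13 (30.9 to 38.2 and 31.5 to 37.2). Whether the share of any cell type has a part in the 6 genes that passed was not tested.

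**Figure D5:**
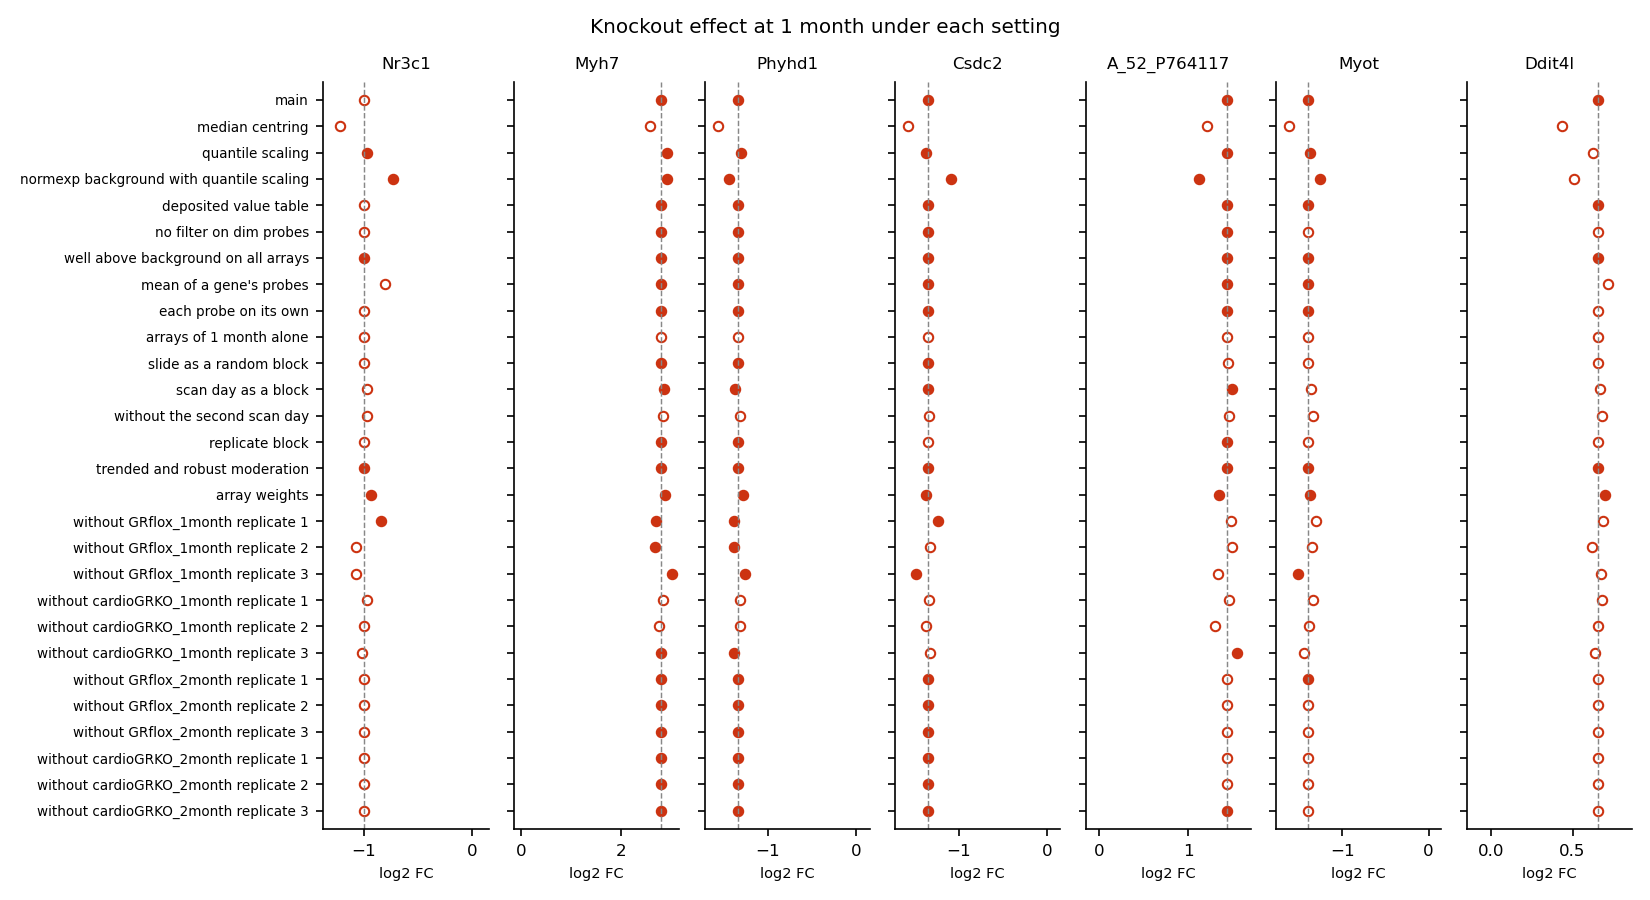
Log2 fold change at 1 month (x axis, 1 panel per gene) under the main setting and each of 27 alternatives (rows). Filled points have a limma adjusted p under 0.05, open points do not, and the dashed line is the main value. All points of a gene keep their sign, and filled points are most frequent for Myh7 and Phyhd1, 22 of 27 alternatives each.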

How the data were processed

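Total RNA of 12 mouse hearts was hybridised to 1-colour (Cy3) Agilent whole mouse genome arrays, 1 heart per array and 3 hearts per genotype and age. Per the submitters' processing notes, scans were read with Agilent Feature Extraction 9.5. The deposited files give the processed signal as a linear intensity, which per the file headers had spatial and multiplicative trends removed and no local background subtracted; the deposited value table equals it. These intensities had no step between arrays, so scaling was done here.

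Control features and spots flagged as non-uniform or as population outliers were left out, spots of a probe were averaged, and each array's 75th percentile was subtracted on the log2 scale. A probe entered if well above background on at least 3 of 12 arrays, and the brightest entering probe stood for a gene. Probes took current names from the GRCm38.p6 annotation for 32737 of 41174 probes (8437 kept the name in the files), with positions as in the files on mm7. The 4 groups of the labels were fitted together with limma 3.58.1 in R 4.3.3, 1 mean per group, with two-sided p-values adjusted by Benjamini-Hochberg over 21909 genes and a threshold of 0.05. Errors are SE of the fit. Figures used Python 3.11.15 and matplotlib 3.10.9.

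The arrays compared, the markers and the gene lists were chosen with earlier results of these data known. Named are Nr3c1, each gene that passed, the 10 higher and 10 lower genes with the smallest unadjusted p among proper symbols with groups that do not overlap, up to 4 genes per list by p, and 18 heart and glucocorticoid genes; some genes of the lists are not reported here. Tested on simulated data for this comparison (31828 probes), the fit recovered 48% of 100 genes shifted by log2 1 and 57% of 100 shifted by log2 2, with 8 false calls. The simulated noise was independent between arrays, with no slide or scan-day effect, so these values need not hold for the real arrays. Arrays give no read depth, and their number limits precision.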

Additional observations from a re-analysis of the deposited data

How the results depend on the processing

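The count of 6 genes at 1 month moved by over 1.5 times in 9 of the 15 alternatives other than leaving out 1 array. It was 0 with median centring (692 genes at an unadjusted limma p under 0.05), 0 with the 1-month arrays alone (1563) and 0 without the second scan day (959). It was 3 with slide as a random block, 11 with normexp background and quantile scaling, 12 where probes had to be well above background on all arrays, 17 with trended and robust moderation and 26 with array weights. It was 9 with quantile scaling, 4 without a filter, 5 with the mean of the probes of a gene, 6 with each probe on its own or the deposited table and 4 with scan day as a block. Leaving out 1 array gave 0 to 5. The cause of these shifts was not tested, beyond fewer arrays where arrays were left out. The split of 3 higher and 3 lower calls was 3 and 6 with quantile scaling and 3 and 8 with normexp background and quantile scaling.

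Replicate numbers were shared by the groups, but same-numbered hearts did not deviate together in every pair (correlations 0.19, 0.28 and -0.04), so the numbers are not taken as pairs; with the replicate block the count was 3. The difference between ages had 0 calls under every alternative that could test it. List medians under median centring followed the median of all genes to lower values (-0.18). The fatty acid oxidation, endothelial and cell cycle medians stayed below 0 in 27 of 27 alternatives. The same held for the corticosteroid receptor, glucocorticoid-induced, Z-disc, dystrophin complex, cold shock domain and inflammation lists. It also held for the ventricular, smooth muscle and red cell markers, so it sets no single list apart. Alternatives that left out an older heart or used the deposited table could not move these medians. Probes near background limit the dimmest genes, Fgf2 and Lcn2 among them.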

Other observations

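Matrix, inflammation and apoptosis genes gave no member that passed at 1 month by limma. Of 26 fibrosis and matrix genes 1 was higher and 0 lower without overlap (median 0.02), with the proteoglycan Dcn at a log2 fold change of 0.24 (SE 0.12). Of 27 inflammation and cytokine genes 15 lay below 0 (median -0.12). Stat3, the cytokine-activated transcription factor, was at 3.99, 3.98 and 3.88 in controls and 3.57, 3.66 and 3.72 in knockouts (-0.30, SE 0.08), and the adhesion molecule Icam1 was at -0.34 (SE 0.14). Of 28 apoptosis genes 16 lay below 0 (median -0.03). The survival gene Bcl2 was at 0.61, 0.43 and 0.48 in controls and 1.23, 1.34 and 1.25 in knockouts (0.77, SE 0.19), without overlap. Its limma adjusted p was 0.465 at 1 month and 0.0335 at 2 months (1.35). Bnip3, a mitochondrial death factor induced by low oxygen, was at -0.35 (SE 0.10), Casp8 at -0.25 and Bcl2l11 at -0.39.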
